A study of Caenorhabditis elegans with 20 samples.

Results

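The *flp* and *nlp* genes of *Caenorhabditis elegans* encode precursor proteins that are cut into small secreted peptides. The *flp* precursors give FMRFamide-related peptides, and the *nlp* precursors give a mixed collection of other neuropeptides. A probeset of the whole genome GeneChip was taken as a member when the annotation of the platform gave it to 1 gene named *flp-* or *nlp-* plus a number. *nlp-27* to *nlp-34* were left out, because most of these encode small glycine-rich peptides better known from the epidermal response to infection and wounding. This gave 85 of the 20563 probesets tested, 32 for *flp* and 53 for *nlp* genes. They belong to 76 of the 16649 genes measured by a probeset of 1 gene, 25 *flp* and 51 *nlp*. The RefSeq gene table of assembly WBcel235 lists 101 such genes, and the 25 others were not analysed here.

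Neuropeptide precursors are packed into dense core vesicles, cut by proprotein convertases, trimmed by a carboxypeptidase and often amidated at the C-terminus before release. The mature peptides act mostly on G protein-coupled receptors, on neurons, muscle, intestine and gonad, and tune feeding, locomotion, egg laying, sleep and arousal. Most *flp* and *nlp* genes are expressed in small sets of neurons, while a few are expressed mainly in the intestine or other tissues outside the nervous system.

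All arrays were of strain DA1316, which carries *glc-1(pk54)* and *avr-14(ad1302)*. The third allele is *avr-15(ad1250)* in the labels and *avr-15(vu227)* in the methods. Drug and control worms carry the same mutations in 3 glutamate-gated chloride channel subunits, which are known targets of ivermectin (IVM). No array thus shows the response of worms with these channels intact. The paper reports that pharyngeal pumping of this strain still fell with IVM, and proposes that the drug has further targets in pharyngeal function. Synchronised cultures were grown at 20°C for 53 hr from L1, and each suspension was split between drug and control plates for 4 hr. In the higher dose experiment, 5 arrays of worms on 1 µg/ml IVM were set against 5 of worms on plates with the same 0.01% DMSO. In the lower dose experiment, 5 arrays of worms on 100 ng/ml IVM were set against 5 with 0.001% DMSO. The labels call the worms adults. The methods name L4 or young adults only for the pumping assay, also after 53 hr of growth. Total RNA came from whole worms, so fewer cells of a type and less RNA per cell cannot be told apart. The comparison asked whether exposure to IVM moved the levels of neuropeptide precursor transcripts, and whether both doses did so alike.

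Values are log2 probeset intensities normalized by RMA, and a difference of 1 is a factor of 2 in intensity. Array medians lay between 5.58 and 5.71 in the 4 groups. Of the 85 member probesets, 62 had a mean over the 20 arrays above 5.70, the median of the means of all probesets. Detection calls were not used here, and none of the values is listed at 0, so a dim probeset may hold little signal of its gene. A log2 fold change is IVM minus control within replicate pairs, with its moderated standard error (SE) from limma, and adjusted p is the p-value after Benjamini-Hochberg adjustment across all 20563 probesets. Levels of different probesets are not set against each other.

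At 1 µg/ml IVM, *nlp-8*, *nlp-15* and *nlp-51* rose at an adjusted p under 0.05, and no member fell. That is 3 of 85 probesets (3.53%), beside 2.11% of all probesets that rose and 1.37% that fell, so the counts of calls were near the background. Unpaired Rank Products called no member higher at this dose. Most other members had a small positive mean difference that did not pass the test. The mean difference was above 0 for 73 of 85 members, beside 45.6% of all probesets, and below 0 for 12, beside 54.4%. All 32 *flp* probesets had a positive mean, as did 41 of the 53 *nlp* probesets. The median log2 fold change was 0.21 over the members, 0.27 over *flp* and 0.18 over *nlp*, beside -0.01 over all probesets. Of the 62 members above the median level, 58 had a positive mean, beside 46.9% of all such probesets, with a median of 0.31. Of the 23 others, 15 had a positive mean, with a median of 0.05. At an unadjusted p under 0.05, 27 members were higher, beside 8.05% of all probesets, and 3 were lower, beside 7.55%.

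**Figure D1:**
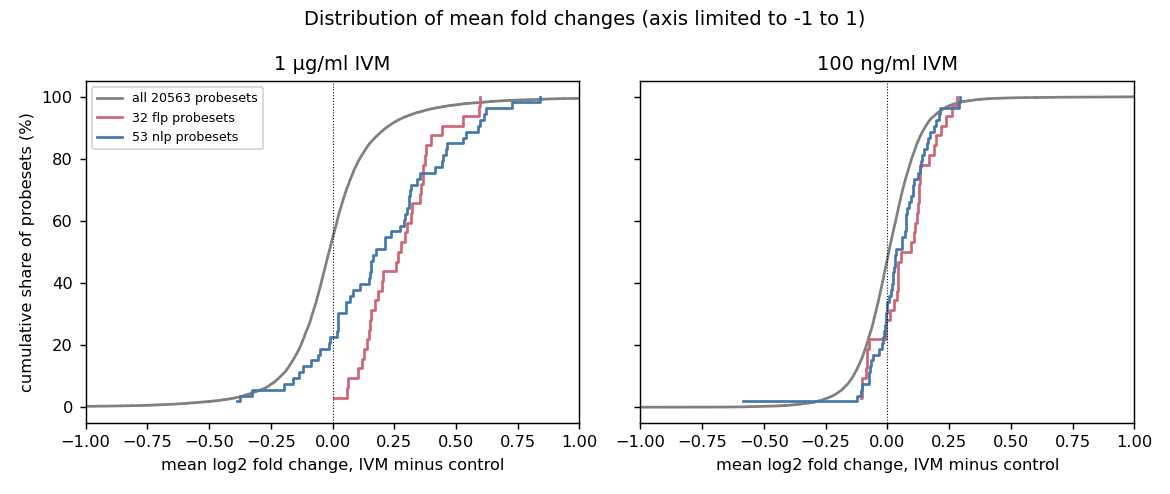
Cumulative share (%) of probesets by mean log2 fold change, IVM minus control, at 1 µg/ml (left) and 100 ng/ml (right), for the 32 *flp* probesets, the 53 *nlp* probesets and all 20563 probesets, with the axis limited to -1 to 1. At 1 µg/ml the *flp* curve starts above 0, and its median is 0.27, while at 100 ng/ml the 3 curves lie closer together.

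*nlp-8*, one of the peptides of the ALA neuron that act in stress-induced sleep, had the smallest p of all members. In the IVM arrays of replicates 1 to 5 at 1 µg/ml its log2 values were 7.83, 8.49, 7.09, 7.04 and 7.15. In the matching controls they were 7.06, 7.72, 6.74, 6.55 and 6.58. *nlp-8* was higher with IVM in 5 of 5 pairs, although the groups overlap, because replicates 1 and 2 are high in both. The mean difference was 0.59 (SE 0.09, adjusted p = 0.011, limma). Leaving out replicate 1 or 4 ended the call (adjusted p of 0.0649 and 0.0508), and the fit without replicates as a block gave an adjusted p of 1.00 for the same difference.

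*nlp-15* had the largest mean rise of the members. Its IVM arrays read 6.94, 7.99, 6.54, 6.80 and 6.68, and its controls read 6.54, 6.41, 6.13, 5.81 and 5.89. Every IVM array was above every control array, with the lowest IVM value, in replicate 3, only just above the highest control value, in replicate 1. The mean difference was 0.84 (SE 0.16, adjusted p = 0.031, limma), and the pair of replicate 2 had the largest step. Without replicate 2 the log2 fold change was 0.65 and the call stayed (adjusted p = 0.0273). The call was lost without replicate 1, 4 or 5, at adjusted p of 0.0672, 0.124 and 0.0860, and without the block, at 0.501. The probeset is of the type that can match several transcripts of related sequence.

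*nlp-51* read 8.53, 9.54, 8.33, 8.68 and 9.25 with IVM and 8.0, 8.74, 8.28, 7.67 and 8.67 in the controls. It was higher in all 5 pairs, by only a trace in replicate 3, and the groups overlap. The mean difference was 0.60 (SE 0.13, adjusted p = 0.0489, limma). Leaving out replicate 1, 2, 4 or 5 ended the call, with adjusted p between 0.107 and 0.166, while leaving out replicate 3 gave 0.73 (adjusted p = 0.0138). Without the block the adjusted p was 1.00. This probeset is marked by the manufacturer as prone to cross-hybridise.

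A second group of members lay just outside the threshold, with adjusted p from 0.0521 to 0.0869. It held *nlp-81*, *nlp-57*, *flp-18*, 1 of the 3 probesets of *flp-1*, *nlp-3*, *nlp-14* and *nlp-61*, all higher on average with IVM, and *nlp-36*, which was lower. *nlp-57* read 7.64, 7.33, 7.11, 7.05 and 7.59 with IVM and 6.71, 7.0, 6.88, 6.70 and 6.79 in the controls, so that its groups do not overlap. The difference was 0.53 (SE 0.12, adjusted p = 0.0522). *nlp-15* and *nlp-57* were the only members whose IVM arrays all lay above the controls, 2 of 85 beside 0.987% of all probesets. *nlp-81* read 6.35, 7.69, 5.85, 6.36 and 6.15 with IVM and 5.71, 6.17, 5.64, 5.62 and 5.61 in the controls. It was higher in 5 of 5 pairs, with replicate 2 far above the others on both plates, and the difference was 0.73 (SE 0.16, adjusted p = 0.0521).

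Among peptides that act in feeding and food responses, *flp-18*, whose peptides are ligands of the NPR-1, NPR-4 and NPR-5 receptors, had the largest difference. It read 8.70, 9.25, 8.02, 8.38 and 8.36 with IVM and 8.14, 8.26, 8.05, 7.68 and 7.60 in the controls. 4 pairs were higher with IVM and replicate 3 was level, and the log2 fold change of 0.60 (SE 0.14) had an adjusted p of 0.0553. No gene of this list passed the test. *flp-21*, also a ligand of NPR-1, differed by 0.06 (SE 0.16), and its sign turned when replicate 2 or 4 was left out. *flp-7*, which acts through the intestine in fat loss, differed by 0.19 (SE 0.12), *flp-5* by 0.28 (SE 0.17), *nlp-7* by 0.16 (SE 0.13), and *nlp-1*, expressed in the AWC olfactory neurons, by 0.29 (SE 0.16). *nlp-12*, the cholecystokinin-like peptide of the DVA neuron, differed by 0.02 (SE 0.10), with a sign that also depended on the replicates kept. *nlp-24*, an opioid-like peptide that promotes pharyngeal pumping in starved worms, differed by -0.14 (SE 0.12, adjusted p = 0.671).

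The last gene of the feeding list, *nlp-40*, encodes an intestinal peptide that times the defecation motor program through the receptor AEX-2. Its controls read 10.30, 10.36, 10.47, 10.26 and 10.46, a narrow band, and its IVM arrays read 9.98, 10.07, 9.75, 10.18 and 10.22. Every IVM array lay below every control array, and *nlp-40* was the only such member, 1 of 85 beside 0.608% of all probesets. The log2 fold change was -0.33 (SE 0.10) with an adjusted p of 0.141, which did not pass the test. *nlp-36* was lower in all 5 pairs as well, at 9.01, 9.19, 8.80, 9.26 and 9.56 with IVM and 9.52, 9.47, 9.40, 9.61 and 9.75 in the controls. Only replicate 5 with IVM reached into the range of the controls, and the difference was -0.39 (SE 0.09, adjusted p = 0.0522). This probeset, like that of *nlp-51*, is marked for cross-hybridisation, as are those of *nlp-61* and *flp-21* and a probeset of *flp-1*. Those of *nlp-40*, *flp-18*, *nlp-14* and *flp-11* and another of *flp-1* are of the type that can match several transcripts, like that of *nlp-15*. *nlp-36* and *nlp-40* were the only members lower in all 5 pairs, 2 of 85 beside 7.91% of all probesets.

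**Figure D2:**
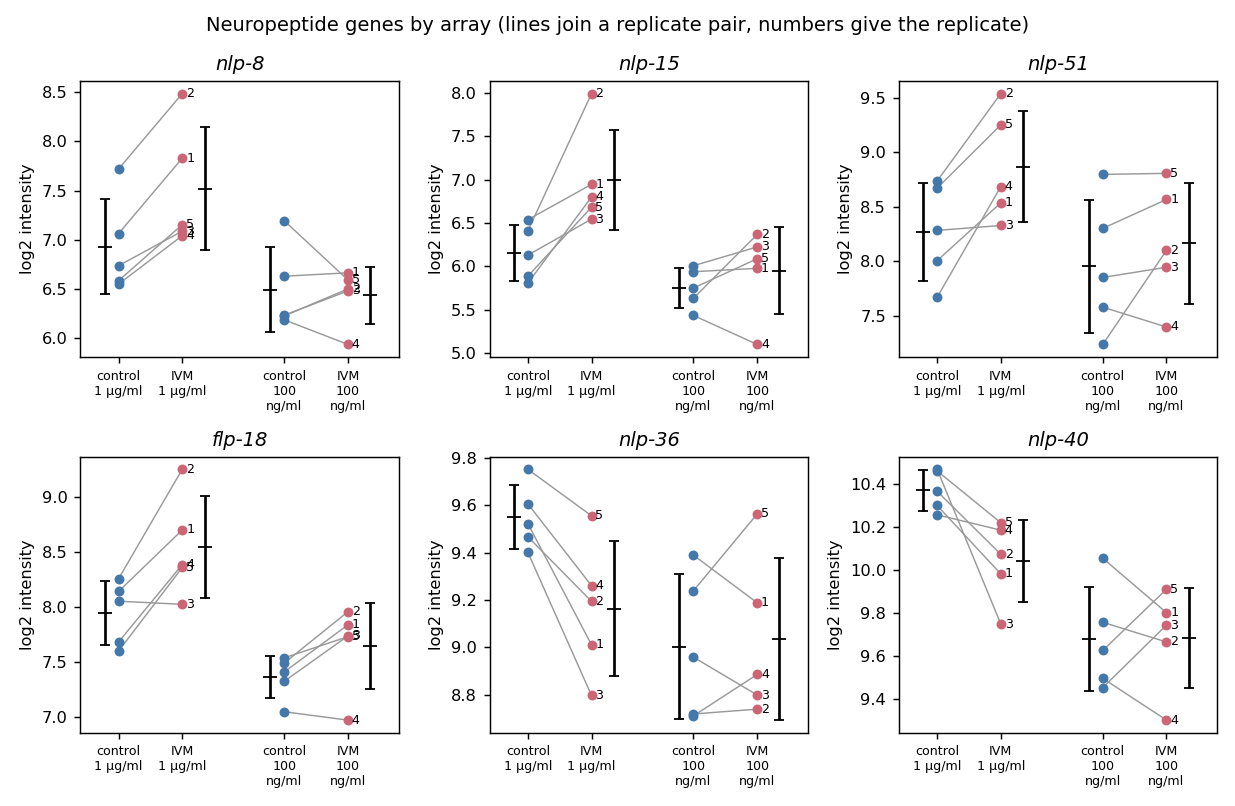
Log2 intensity of 6 members in each array of the 4 groups. Points are arrays, lines join the control and IVM arrays of a replicate, numbers are replicates and bars beside the points are the mean ± SD (n = 5). At 1 µg/ml, *nlp-8*, *nlp-15* and *nlp-51* are higher in 5 of 5 pairs, *flp-18* in 4, and *nlp-36* and *nlp-40* are lower in 5 of 5. At 100 ng/ml, *nlp-15*, *nlp-51* and *flp-18* are higher in 4 of 5 pairs, *nlp-8* and *nlp-36* in 3 and *nlp-40* in 2.

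Of the 7 genes of the list for sleep and stress, *nlp-8* rose and the other 6 did not pass the test. The median log2 fold change of the list was 0.32, and 6 of the 7 means were above 0. *flp-24* and *flp-13*, which are expressed in ALA with *nlp-8*, both had differences of 0.32 (SE 0.14 and 0.13, adjusted p = 0.307 and 0.285). *flp-13* read 7.58, 8.29, 6.80, 6.84 and 7.40 with IVM and 7.10, 7.63, 7.09, 6.42 and 7.07 in the controls, with replicate 3 lower and the other 4 pairs higher. *flp-11*, the peptide of the sleep-active RIS neuron, showed the same order, with replicate 3 lower and the other pairs higher. The mean difference was 0.37 (SE 0.14, adjusted p = 0.243). *nlp-14*, also known from sleep, differed by 0.46 (SE 0.12, adjusted p = 0.0808). *nlp-22*, a peptide of the RIA neurons that promotes sleep, stayed within 0.10 of 0 under each replicate left out, at a mean level of 4.42 with IVM and 4.43 in the controls.

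For egg laying, none of 5 genes passed the test, although all 5 means were above 0 and the list had a median of 0.37. *nlp-3*, a peptide of the HSN neurons that promotes egg laying, read 7.33, 8.0, 7.13, 7.50 and 7.86 with IVM and 6.85, 7.02, 7.18, 6.78 and 7.30 in the controls. It was higher in 4 pairs and level in replicate 3, with a difference of 0.54 (SE 0.14, adjusted p = 0.0759). *flp-10* and *flp-17*, whose peptides inhibit egg laying through EGL-6, differed by 0.37 (SE 0.16) and 0.17 (SE 0.17). Genes that act to promote and to inhibit egg laying thus had means on the same side.

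For locomotion and arousal, none of the 4 measured genes passed. *flp-1*, a peptide of the AVK neurons, is measured by 3 probesets, which differed by 0.40, 0.53 and 0.59 and followed each other over the 20 arrays (r from 0.864 to 0.915, arrays of all 4 groups). The probeset with the largest difference read 7.90, 8.63, 7.13, 7.74 and 7.78 with IVM and 7.36, 7.80, 7.22, 6.96 and 6.88 in the controls, with replicate 3 slightly lower and the other 4 pairs higher (SE 0.14, adjusted p = 0.0657). *nlp-49*, a ligand of the receptor SEB-3, was higher in 5 of 5 pairs by 0.32 (SE 0.09, adjusted p = 0.113). *flp-2*, an arousal peptide, differed by 0.15 and 0.26 on its 2 probesets. Of the other genes with several probesets, *flp-8*, *flp-15*, *flp-19* and *nlp-9* had differences of 1 sign on all of theirs, and those of *nlp-16* were -0.05 (0.02 without replicate 3) and 0.11.

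*nlp-24*, *nlp-25* and *nlp-26*, whose precursors belong to the YGGW-amide type, had negative means. *nlp-25* differed by -0.37 (SE 0.12, adjusted p = 0.157) and was lower in 4 of 5 pairs, and *nlp-26* differed by -0.16 (SE 0.23). Without replicate 3, where *nlp-24* and *nlp-26* had their lowest differences (-0.58 and -1.10), *nlp-24* had -0.03 and *nlp-26* turned to 0.08, while *nlp-25* had -0.29. The 51 probesets not named by the rule for named genes had log2 fold changes between -0.20 and 0.62 at 1 µg/ml, and none passed. The largest of them were *nlp-11* at 0.62 (SE 0.18, adjusted p = 0.112) and *nlp-35* at 0.61 (SE 0.19, adjusted p = 0.137).

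The replicate pairs at 1 µg/ml did not move alike. The median difference over the 85 members was 0.31, 0.59, -0.27, 0.41 and 0.30 in replicates 1 to 5, while that of all probesets stayed between -0.03 and 0.02. In replicate 3, 13 of 85 members were higher with IVM, beside 45.9% of all probesets. In the other pairs 67 to 73 members were higher, beside 47.1% to 53.3% of all probesets. For *flp* probesets the contrast was 1 of 32 higher in replicate 3 and 32 of 32 in replicate 4, beside 45.9% and 53.3% of all probesets. 8 members were higher in all 5 pairs, which were *nlp-8*, *nlp-15*, *nlp-49*, *nlp-51*, *nlp-57*, *nlp-62*, *nlp-81* and *nlp-89*, beside 7.29% of all probesets, and 50 were higher in at least 4 pairs, beside 22.6%. Only 8 were lower in at least 4 pairs, beside 26.3%.

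**Figure D3:**
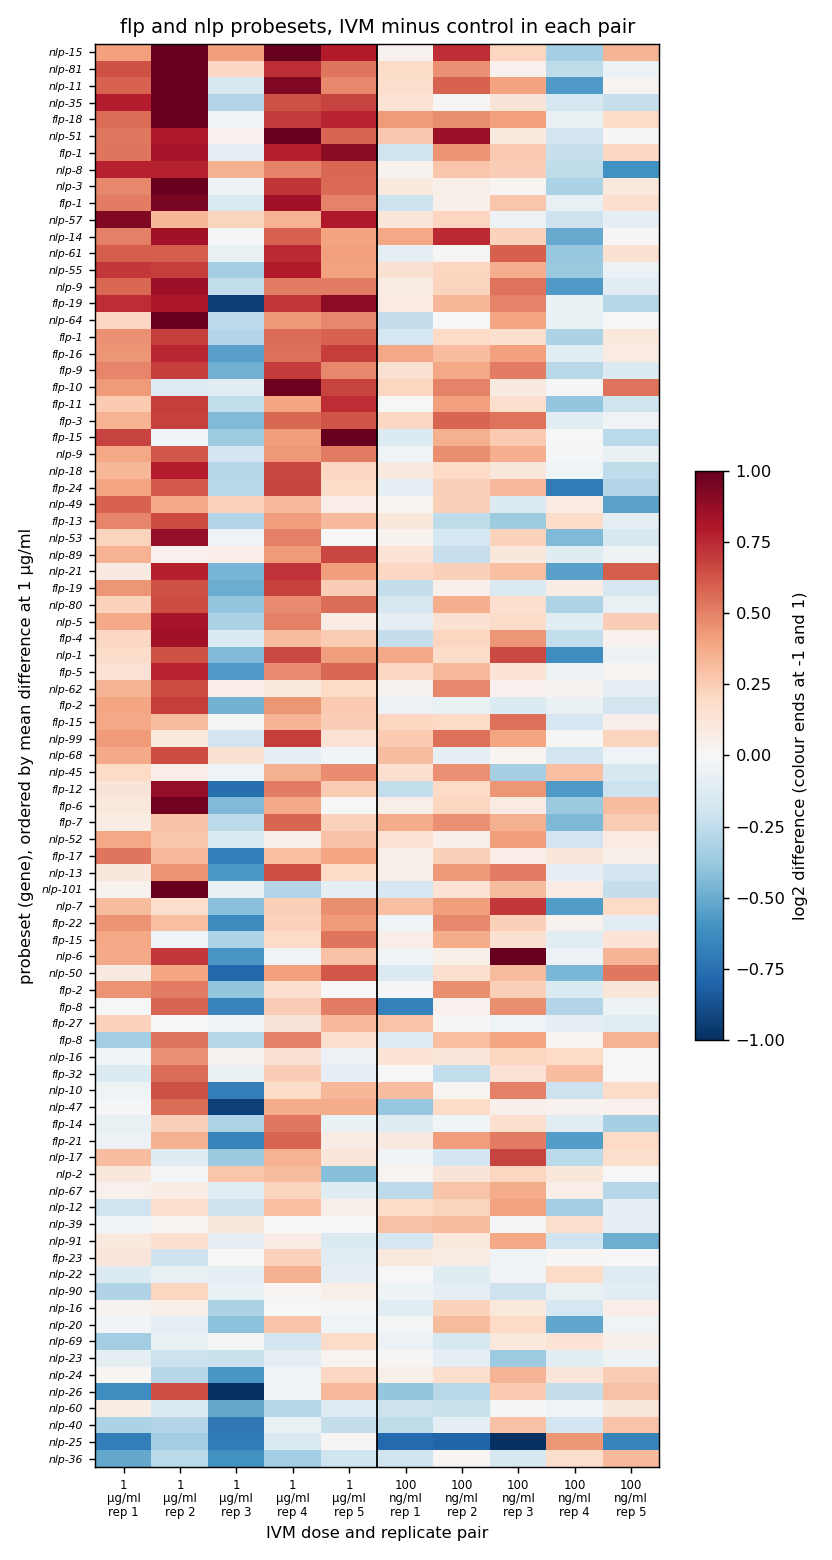
Log2 difference, IVM minus control, of the 85 member probesets (one line each, in order of the mean difference at 1 µg/ml) in the 5 pairs of each dose, with colours ending at -1 and 1. At 1 µg/ml, replicate 3 is mostly blue (13 of 85 higher, beside 45.9% of all probesets) and the other pairs mostly red. At 100 ng/ml replicate 4 is mostly blue (22 of 85 higher, beside 50.9% of all probesets).

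The count of calls depended on replicate 3. A fit without it was made after its pair was seen to run against the others, and there 25 member probesets of 21 genes rose, beside 2.48% of all probesets, and none fell, beside 0.958%. The median log2 fold change of the members was then 0.35. In the 4 other pairs, 50 members were higher in every pair, beside 11.8% of all probesets. Because the pair left out was picked by how the members ran in it, the shares over all probesets are no like measure here. The 25 held all 3 probesets of *flp-1* (0.57 to 0.76), *flp-18* (0.75, adjusted p = 0.0093), *flp-11* (0.52, 0.0438), *flp-13* (0.47, 0.0352), *nlp-3* (0.69, 0.0164) and *nlp-14* (0.58, 0.0211), besides the 3 called over all pairs. *nlp-36* had -0.33 (adjusted p = 0.105) and *nlp-40* had -0.23 (0.235) without it. No label sets replicate 3 apart, and it was kept. Without replicate 1 or 4 no member was called, without replicate 5 only 1, and without replicate 2 there were 3. Those 3 were not the same as over all pairs, as *nlp-51* was not among them.

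Of the 107 other genes of the peptide pathway that were measured, 3 rose at 1 µg/ml and none fell, beside 2.2% and 1.39% of all genes, so the share that rose was near the background. Of 10 genes for precursor processing, *egl-21* and *kpc-1* rose. *egl-21*, the carboxypeptidase E that trims the cut peptides, had a mean of 9.24 ± 0.90 (SD, n = 5 arrays) with IVM and 8.66 ± 0.98 in the controls, and a mean difference of 0.58 (SE 0.09, adjusted p = 0.0108, limma), higher in 5 of 5 pairs. *kpc-1*, a furin-like proprotein convertase, had 0.53 (SE 0.10, adjusted p = 0.0224), also in 5 of 5 pairs. *egl-3*, the prohormone convertase that cuts most *flp* and *nlp* precursors, had 0.41 (SE 0.10, adjusted p = 0.0671), and its chaperone *sbt-1* had 0.44 (SE 0.13, adjusted p = 0.125). The median of the list was 0.29.

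Among 5 other peptide precursors, *capa-1* rose by 0.42 (SE 0.08, adjusted p = 0.0332, limma), higher in 5 of 5 pairs, and *pdf-1*, the pigment-dispersing factor that acts in locomotion, had 0.31 (SE 0.13, adjusted p = 0.284). None of 9 genes for dense core vesicle release passed, with a median of 0.03 and *unc-108* (a Rab2 GTPase) closest at 0.32 (adjusted p = 0.0705). None of 5 neprilysin peptidases passed, of which *nep-21* was closest at 0.31 (adjusted p = 0.0817). None of 78 receptors passed, with a median of 0.01 and 45 means above 0. Most receptor probesets were dim, with mean levels below 5.70, and may hold little signal of their genes. The 23 neuropeptide probesets at or below that level had a median of only 0.05. The receptor with the smallest p was *npr-11* at -0.30 (adjusted p = 0.0671). The 3 pathway genes that rose, *egl-21*, *kpc-1* and *capa-1*, were all lost without the block and without replicate 4. Without replicate 1 or 2 only 1 pathway gene was called. Without replicate 3 there were 5 that rose, beside 428 of all 16649 genes. That pair was picked by how the neuropeptide genes ran in it, so the share over all genes is no like measure.

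Marker genes of tissues also differed from pair to pair. Of 10 genes of germline and oocytes, none passed the test, and their median difference was -0.12, -0.56, 0.35, -0.31 and -0.11 in replicates 1 to 5, opposite in sign to the median of the neuropeptide genes in every pair. Their summed intensity, on the linear scale, ran from 2709 to 8007 in the controls and from 1831 to 8469 with IVM, and both lowest values were of replicate 2, where the neuropeptide genes stood highest. Of 16 neuron marker genes, only *egl-21* passed, which is also counted among the processing genes above. The median difference of the 16 genes was 0.19, 0.21, -0.00, 0.22 and 0.02 in the 5 pairs, with 0.12 over all pairs. Their summed intensity was 1914 to 3299 in the controls and 2171 to 4201 with IVM. Of 9 pharynx genes none passed, with all 9 means above 0 and a median of 0.21. Their pair medians were 0.39, 0.39, -0.12, 0.17 and 0.16, of the same sign as those of the neuropeptide genes in every pair. Without replicate 3, the pair picked by how the neuropeptide genes ran, 2 of the 9 pharynx genes rose, beside 428 of all 16649 genes. Of 12 intestine genes *ges-1* rose (0.91) and *pept-1* (-0.71) and *act-5* (-1.11) fell, the last not without replicate 3 (adjusted p = 0.0581). Of 8 muscle genes none passed, but all 8 means were above 0, with a median of 0.20 and pair medians of 0.27, 0.23, 0.43, 0.03 and 0.08, highest in replicate 3. Their summed intensity was 6839 to 16547 in the controls and 7565 to 19094 with IVM. None of 10 hypodermis and 7 sperm genes passed. The part of tissue proportion or stage in the result was not tested.

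**Figure D4:**
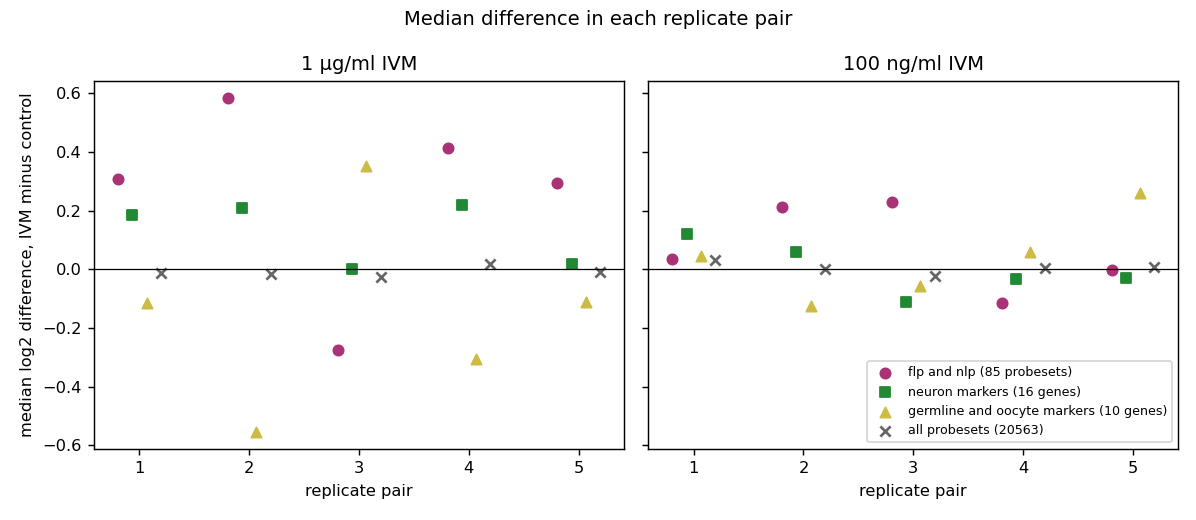
Median log2 difference, IVM minus control, in each replicate pair at 1 µg/ml (left) and 100 ng/ml (right), over the 85 member probesets, 16 neuron marker genes, 10 genes of germline and oocytes and all 20563 probesets. At 1 µg/ml the members and the germline genes lie on opposite sides of 0 in all 5 pairs, with members at -0.27 and germline genes at 0.35 in replicate 3.

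At 100 ng/ml no member passed in either direction, beside 0% of all probesets in each. The smallest adjusted p of a member was 0.936. At an unadjusted p under 0.05, 4 members were higher, beside 2.3% of all probesets, and 1 was lower, beside 2.06%. The mean was above 0 for 58 of 85 members, beside 52.4% of all probesets, and the median was 0.06, beside 0.01 over all. Unpaired Rank Products also called no member here.

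The genes called at the higher dose did not pass at the lower. *nlp-8* read 6.66, 6.5, 6.48, 5.94 and 6.59 with IVM and 6.63, 6.23, 6.23, 6.19 and 7.19 in the controls. Replicates 4 and 5 were lower and the others level or higher, and the difference was -0.06 (SE 0.13). *nlp-15* read 5.98, 6.37, 6.22, 5.10 and 6.09 with IVM and 5.94, 5.63, 6.01, 5.43 and 5.75 in the controls, a difference of 0.20 (SE 0.14) with replicate 4 lower. *nlp-51* had 0.21 (SE 0.14), *nlp-36* 0.03 (SE 0.10) and *nlp-40* 0.01 (SE 0.11).

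The largest differences at 100 ng/ml were those of *nlp-25*, *nlp-6*, *nlp-99* and *flp-18*. *nlp-25* read 5.67, 5.65, 5.22, 5.19 and 6.44 with IVM and 6.44, 6.46, 6.33, 4.75 and 7.11 in the controls, lower in 4 pairs and higher in replicate 4. Its difference was -0.58 (SE 0.19, adjusted p = 0.936), and without replicate 4 it was -0.84 (SE 0.10, adjusted p = 0.00381), the only member called in that fit, where 0.545% of all probesets fell and 0.977% rose. Its adjusted p under the other alternatives lay between 0.672 and 1.00. *nlp-99* was higher in 5 of 5 pairs by 0.29 (SE 0.09), *nlp-6* in 3 of 5 by 0.29 (SE 0.17), and *flp-18* in 4 of 5 by 0.28 (SE 0.10). *nlp-24* was higher in 5 of 5 pairs by 0.19 (SE 0.08), with 5.12, 5.30, 5.50, 5.01 and 5.40 with IVM and 5.07, 5.12, 5.16, 4.89 and 5.14 in the controls, and *flp-17* in 5 of 5 by 0.11 (SE 0.08). These were the 3 members higher in all pairs, *flp-17*, *nlp-24* and *nlp-99*, beside 2.81% of all probesets, and *flp-2* (on 1 of its probesets) and *nlp-90* were lower in all 5, beside 2.24%. No member had groups that did not overlap, beside 0.0729% of all probesets with IVM above and 0.0827% with IVM below.

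The pairs differed here too. The median over the members was 0.04, 0.21, 0.23, -0.12 and -0.00 in replicates 1 to 5, with 48, 68, 70, 22 and 42 of 85 members higher. The germline genes had medians of 0.05, -0.13, -0.06, 0.06 and 0.26 in the same pairs, and the neuronal genes 0.12, 0.06, -0.11, -0.03 and -0.03. The fit without replicate 4 was chosen with its pair known from earlier results of these data to run against the others. In it the median of the members was 0.11 and none was called higher. In the 4 other pairs 21 members were higher in every pair, beside 11.2% of all probesets, and 3 were lower, beside 9.11%. Because the pair left out was known to run against the others, the shares over all probesets are no like measure here either. No gene of the processing, release, degradation, receptor and other precursor lists passed at this dose.

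Whether the drug effect differed between doses was tested as a contrast over all 20 arrays. No member passed, beside 0.00486% of all probesets with a larger effect at 1 µg/ml and 0% with a smaller one. At an unadjusted p under 0.05 there were 13 members with a larger effect, beside 3.2% of all probesets, and 3 with a smaller one, beside 3.59%. The effect was larger at 1 µg/ml for 63 of 85 members, beside 45.8% of all probesets, and smaller for 22, beside 54.2%. *nlp-8* had the smallest p, with an effect larger by 0.65 (SE 0.17, adjusted p = 0.612, limma), followed by *nlp-57* at 0.53 (SE 0.15), *nlp-36* at -0.42 (SE 0.13) and *nlp-3* at 0.54 (SE 0.17). For these genes the difference between doses was not shown to exceed the spread between pairs once all probesets were allowed for.

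The control groups of the experiments, neither with drug, were also compared. No member passed, beside 0% of all probesets in either direction, and the smallest adjusted p was 0.415. The mean was higher in the controls with 0.01% DMSO for 77 of 85 members, beside 54.6% of all probesets, and the median difference was 0.21, beside 0.02 over all. That is as large as the median drug effect at 1 µg/ml. At an unadjusted p under 0.05, 18 members were higher, beside 6.86% of all probesets, and 1 was lower, beside 4.08%. *nlp-40* was higher by 0.69 (SE 0.12), with controls at 10.26 to 10.47 in the experiment with 0.01% DMSO and at 9.45 to 10.05 in the other, and *nlp-10* was higher by 0.74 (SE 0.18). *nlp-7* was higher by 0.76 (SE 0.25) and *flp-22* by 0.97 (SE 0.32), while *nlp-25* was lower by 1.19 (SE 0.48). The summed germline intensity was 5539 to 12222 in the controls with 0.001% DMSO, with 3 of 5 arrays above 8007, the highest value of the other controls. DMSO share, experiment and culture stage cannot be told apart in this comparison.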

How the data were processed

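Total RNA of whole worms was hybridised to Affymetrix *C. elegans* arrays. The deposited values are log2 intensities that the authors made with RMA, used here as they are. No version of RMA is given in the sources used here, and detection calls were not used. Arrays were grouped by title, source name and exposure label. The description text of the labels names another drug on some arrays and another DMSO share, and was not used. Of 20575 probesets, 12 spike-ins were left out, with no filter on intensity. The annotation gives 19181 probesets to 1 gene, 803 to several and 579 to none. All 85 member probesets matched a RefSeq symbol, 16 carry the suffix for shared transcripts and 8 that for cross-hybridisation.

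In limma 3.58.1 (R 4.3.3), each dose had a separate fit over 10 arrays, blocked on replicate number. The contrast of doses used 20 arrays with 10 blocks, and controls were compared without blocks. The methods state that each suspension was split between drug and control plates, so numbers pair arrays. After group means were removed, arrays with the same number correlated at r of 0.499 to 0.884 in the 1 µg/ml experiment and 0.553 to 0.883 in the other. Replicate 3 at 1 µg/ml was closer to an array of another number (0.673), as was replicate 5 at 100 ng/ml (0.815). 5 pairs at each dose limit the precision.

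Named are members that passed, the 6 largest rises and falls of 1 sign in all 5 pairs at 1 µg/ml, the 3 largest differences in each direction at 100 ng/ml, the role lists (feeding, fat and food, sleep and stress, egg laying, locomotion and arousal), and up to 3 genes per pathway list. *nlp-11*, *nlp-35*, *nlp-61*, *nlp-10*, *flp-22*, *nlp-26*, *nlp-62*, *nlp-89*, *nlp-16*, *flp-8*, *flp-15*, *flp-19*, *nlp-9*, *sbt-1*, *act-5*, *ges-1* and *pept-1* were named after their values were seen. Members and lists were chosen with earlier results of these data known. Role and pathway lists use 1 probeset per gene, the brightest.

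Alternatives were array quality weights, a threshold of 0.10, a single fit of all 20 arrays, no block, leaving out each replicate, medians set equal, repeated quantile normalization, trend and robust options of eBayes, a filter at the median mean, 1 probeset per gene, and unpaired Rank Products with 100 permutations, written here. Tables were handled in Python 3.11.15 with numpy 2.4.6 and pandas 2.3.3. The fits were tested on simulated data, where 44.8%, 92.5% and 98.5% of probesets changed by log2 values of 0.5, 1 and 2 were called at 1 µg/ml and 43.3%, 92.5% and 100% at 100 ng/ml, over 20563 probesets. Of the calls, 6.55% and 4.27% were of unchanged probesets. The simulated noise was independent between probesets, without pairs in which many genes run against the others together, so these shares may not hold for the real arrays.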

Additional observations from a re-analysis of the deposited data

Results flagged for a closer look

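Each group of 5 arrays was checked for an array whose gap to the nearest other value exceeded 0.71 of the range of the group. This was done for 34 probesets in 4 groups, 136 groups of values in all, and 12 were picked out, where chance gives about 5%, or 1 in 20. Arrays enter many of these groups, so the 12 are not independent.

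8 of the 12 were replicate 4 with 100 ng/ml IVM, where it was the lowest. It read 6.64 for *flp-11* (nearest 7.53), 6.82 for *flp-13* (7.07), 6.97 for *flp-18* (7.73) and 4.82 for *flp-21* (5.85). It read 7.80 for *flp-24* (nearest 8.92), 7.46 for *flp-5* (8.14), 6.48 for *flp-7* (7.41) and 5.94 for *nlp-8* (6.48). The control array of replicate 4 was lowest of its group for all 8 genes as well, but not set apart by this measure.

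The other 4 were of replicate 2 in the 1 µg/ml experiment, where it was the highest. With IVM it read 8.14 for *nlp-12* (nearest 7.32), 7.99 for *nlp-15* (6.94) and 7.69 for *nlp-81* (6.36). In the controls it read 6.17 for *nlp-81* (nearest 5.71).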

How the results depend on the processing

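At 1 µg/ml the 3 members called higher became 0 without the replicate block and 0 by unpaired Rank Products, 10 with all 20 arrays in a single fit, 7 of 62 over probesets above the median mean, 5 with trend and robust, 13 with array quality weights and 10 at an adjusted p under 0.10. Leaving out each replicate gave 0 to 25. Members called lower were 0, but 1 with all 20 arrays, 1 with array quality weights and 1 at an adjusted p under 0.10, and stayed at 0 leaving out replicates. At 100 ng/ml, leaving out replicates gave 0 members higher and 0 to 1 lower. The 3 pathway genes higher at 1 µg/ml became 0 without the block, 6 at an adjusted p under 0.10 and 0 to 5 leaving out replicates, and none lower became 1 with array quality weights and 1 at an adjusted p under 0.10. Shares of all probesets or genes under these alternatives are not set beside the counts. A larger count thus need not be particular to the members or the pathway. The cause was not tested. The median difference of the members kept its sign under each alternative run, from 0.16 to 0.35 at 1 µg/ml and from 0.01 to 0.11 at 100 ng/ml. Among named members, signs turned at 1 µg/ml for *nlp-12* with quantile normalization (-0.00115), which ran from -0.0490 to 0.0804 leaving out replicates, for *nlp-22* with array quality weights (0.0156) and over replicates left out (-0.0997 to 0.0234), for *flp-21* (-0.0748 to 0.238) and for *nlp-90* (-0.0718 to 0.0556). Outside the named members, *nlp-26* (0.08), *nlp-20* (0.03), a probeset of *nlp-16* (0.02), *nlp-2* (-0.00275) and *nlp-39* (-0.00259) turned sign without replicate 3. Counts between doses and between controls stayed at 0. The block turned no other call. Intensities were not set against background, and 23 of 85 members lie at or below the median level.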
